A study of Rattus norvegicus with 16 samples.

Results

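The respiratory chain and the ATP synthase were followed through 103 probes of 84 gene names on a rat microarray with 41012 probes of 35250 names. A probe was a member when its name on the array began with Nduf, Uqcr, Cox4 to Cox8 or Atp5, or was Sdha, Sdhb, Sdhc or Sdhd. The rule used names only, but it was chosen with earlier results of these data known. Complex I had 46 probes, complex II 4, complex III 11, complex IV 20 and complex V 22. Of these, 92 probes were for subunits. The others were for the complex I assembly factors Ndufaf1 to Ndufaf4, the pseudogene Cox6c-ps1, and Cox4nb, Atp5s and Atp5sl, which RefSeq now calls Emc8, Dmac2l and Dmac2 and which are no subunits despite their names.

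The samples were primary cultures of hippocampal neurons from Sprague-Dawley rat embryos of either sex at embryonic day 18 to 19, in 4 groups of 4 samples that the study design calls biological replicates. Knockdown cultures were transduced with lentivirus (pTRIP vector) that made a short hairpin RNA (shRNA) against the coding region of PRR7, a synaptic membrane protein. Overexpression cultures received lentivirus of another vector, FUGW, that carried full-length PRR7. Nontargeting cultures received lentivirus with an shRNA that has no target, and not transduced cultures received no virus. A control virus of the FUGW vector was not among the groups, and whether the embryos of a sample were pooled is not given in the sources used here. Each of 8 arrays held 2 samples of the same group, replicates 1 and 2 or replicates 3 and 4, in the dyes Cy3 and Cy5. One slide carried the knockdown and nontargeting arrays, and the second those of overexpression and not transduced cultures. Any other pairing of groups crosses the slides, and there group and slide cannot be told apart.

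The share of probes well above background ranged from 49.25% to 69.68% per sample, 0 probes were saturated, and precision is limited by how many arrays there were. No probe was named Prr7, so the knockdown and the overexpression themselves were not read. Of 13 probes for markers of neurons, 0 were below the background limit throughout any group. The same held for 13 oligodendrocyte lineage probes, and of 18 astrocyte probes 1 was below it throughout each group. Detection of neuron markers therefore does not set neurons apart from glia in these cultures. Values below are log2 intensities after background correction and normalization of all arrays together. In bulk cultures, fewer cells of a type and less RNA per cell cannot be told apart.

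Mitochondria make ATP by passing electrons from NADH (complex I) and succinate (complex II) through ubiquinone to complex III, cytochrome c and complex IV, which reduces oxygen. Complexes I, III and IV pump protons across the inner membrane, and complex V, the ATP synthase, uses their return to make ATP. Most subunits are encoded in the nucleus, which is where all members described here lie, and neurons depend heavily on this supply for ion pumping and synaptic transmission. A loss of a subunit can leave a complex unassembled, so subunit transcripts are often considered together.

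A probe was tested when 4 or more samples of 16 read it well above background and it had at least 12 values left after spots marked as outliers were removed. Of the 103 members 97 were tested, among 27318 probes in all. The 6 others were a probe of Ndufb3 (well above background in 1 sample), Uqcrq (3 samples), Cox8b (0), Cox8c (2), an antisense probe at Uqcrb (0), and Sdhc, which was well above background in 16 samples but lost too many values to outlier marks. The test was limma's moderated test on a model of group and dye, in which samples of the same array share a random effect. Its p-values were adjusted over all 27318 probes by the Benjamini-Hochberg method, and a probe rose or fell where the adjusted p was under 0.05.

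Knockdown against nontargeting compared the virus aimed at PRR7 with its shRNA control. Of the 97 member probes, 12 fell and 3 rose in knockdown cultures, or 12.4% and 3.09%. Among all probes 10.9% fell and 10.3% rose, and 21.1% did either. The falls reached -1.498 on the log2 scale, and the 5 largest belonged to 3 genes: Uqcrb of complex III, Ndufb10 of complex I and Sdhd of complex II. The median difference of the members was -0.10, against -0.02 for all probes. At most of the called genes the nontargeting group stood apart from all 3 other groups, as given below. Against not transduced cultures, across slides, 4 members fell and 2 rose in knockdown cultures, beside 5.37% and 4.76% of all probes. With only the 8 samples of the knockdown and nontargeting slide in the fit, 9 of 99 members tested fell and 3 rose in knockdown against nontargeting. Among all probes of that fit 4673 of 28607 passed in either direction.

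The scaling moved this split. With the scanner software's processed signal 29 members fell and 1 rose, where 13.1% of all probes fell and 9.54% rose. In the authors' deposited values 5 fell and 6 rose, where 4.67% of all probes fell and 17.4% rose. The median of all probes was -0.10 with the processed signal and 0.16 in the deposited values. Relative to that median, the median of the members was -0.07 in the main fit, -0.21 with the processed signal and -0.18 in the deposited values. Counts of members that fell or rose are therefore tied to the normalization, whereas the falls of Uqcrb (3 probes), Ndufb10 and Sdhd passed the test under each of these scalings and were the 5 falls in the deposited values.

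**Figure D1:**
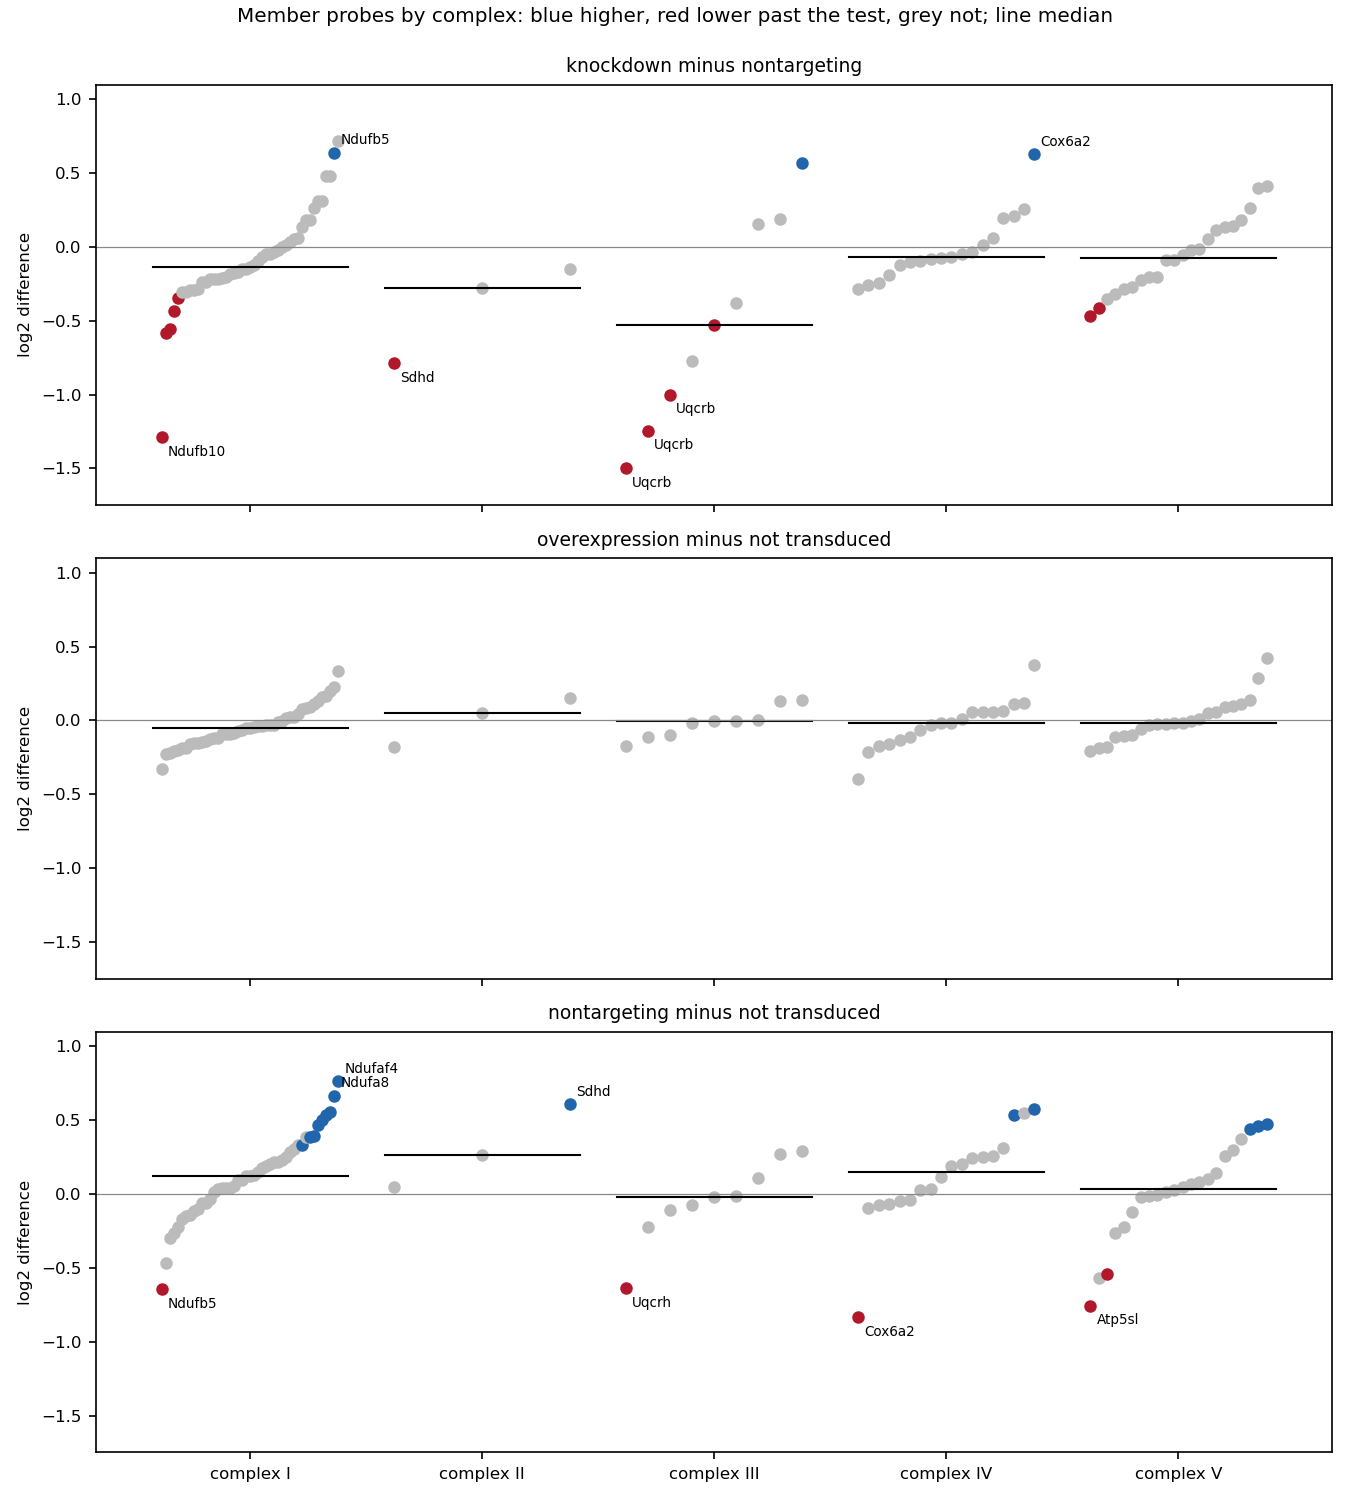
Log2 differences of the tested member probes by complex (one point per probe, sorted within a complex; horizontal bars are medians), for knockdown minus nontargeting, overexpression minus not transduced and nontargeting minus not transduced. Blue points rose and red points fell past the test. Complex III had the lowest median in the knockdown comparison (-0.53). That median is over 9 probes of 6 genes, 3 of them for Uqcrb, so it is not a median over genes. No member passed in the overexpression comparison.

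In complex I, 5 of 45 probes fell and 1 rose in knockdown cultures, with a median difference of -0.14. Ndufb10 is an accessory subunit of the membrane arm, the part that pumps protons. Its log2 intensity was 12.87, 12.87, 13.00 and 13.00 in the knockdown samples, and 14.24, 14.11, 14.26 and 14.30 in the nontargeting samples. The 2 groups did not overlap and each was tight. The difference was -1.29 ± 0.14 (SE), or 2.45-fold lower (adjusted p = 2.64e-05). Overexpression cultures lay between at 13.63 to 13.83, and not transduced cultures read 13.30, 13.91 and 13.94, with replicate 1 marked as an outlier and left out. Every knockdown value was thus below every value of the 3 other groups, and every nontargeting value above them.

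The Ndufb10 probe and the Uqcrb probe with the largest change are shown because the falls of these 2 genes were the largest among the members. The first lies on chromosome 10 at 13977701 to 13977879 and the second on chromosome 7 at 67959753 to 67959812 (array annotation, build rn4). The Ndufb10 positions span more than the 60 bases of the probe.
Ndufb10: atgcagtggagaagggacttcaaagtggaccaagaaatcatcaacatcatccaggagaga
Uqcrb: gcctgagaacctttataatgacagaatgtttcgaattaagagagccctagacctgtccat

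The other complex I falls were smaller. Ndufa11, an accessory subunit of the membrane arm, had 11.68, 11.65, 11.90 and 11.79 in knockdown samples and 12.38, 12.27, 12.34 and 12.36 in nontargeting samples. These groups did not overlap, and the difference was -0.58 ± 0.14 (SE, adjusted p = 0.00921). Ndufv1, the core subunit that oxidizes NADH, differed by -0.55 (adjusted p = 0.0157). Ndufa9, which sits near the ubiquinone site, differed by -0.44 (adjusted p = 0.00899), and the accessory subunit Ndufb9 by -0.34 (adjusted p = 0.0386). Ndufv1, Ndufa9 and Ndufb9 were named after their values were seen. Ndufa9 was below all 3 other groups in every knockdown sample, at 13.26 to 13.42 against 13.52 to 13.93 elsewhere.

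Ndufb5, another accessory subunit, rose. Its values were 14.70, 14.66, 14.80 and 14.63 in knockdown samples and 14.11 and 14.01 in nontargeting samples 1 and 2, with nontargeting samples 3 and 4 left out as outliers. The difference of 0.64 ± 0.15 (SE, adjusted p = 0.00902) thus rests on a single nontargeting array, and with the processed signal it was 0.50 and did not pass (adjusted p = 0.0864). The 39 other complex I probes did not pass, among them Ndufb8, with a mean of 16.005 ± 0.22 in knockdown and 16.17 ± 0.11 in nontargeting cultures (SD, n = 4 each), and Ndufs4 with 10.16 ± 0.18 and 10.28 ± 0.89. Ndufa4, an associated subunit now often counted with complex IV, averaged 15.56 ± 0.11 (SD, n = 4) and 15.56 ± 0.22 (SD, n = 2).

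Complex II, succinate dehydrogenase, also belongs to the citric acid cycle. Sdhd, one of its membrane anchors (chromosome 8, 53955238 to 53955297, rn4), read 13.21, 13.16, 13.58 and 13.45 in the knockdown samples, against 14.18, 13.98, 14.27 and 14.12 in the nontargeting samples. All knockdown values lay below all nontargeting values, and the difference was -0.79 ± 0.13 (SE), or 1.73-fold lower (adjusted p = 0.000401). Sdha, the flavoprotein that oxidizes succinate, differed by -0.15 (95% interval -0.37 to 0.07) and did not pass. The iron-sulfur subunit Sdhb differed by -0.28 (adjusted p = 0.109, with 2 nontargeting values left out). Sdhc, the other anchor, was not tested, and its values were 12.32 to 12.70 in knockdown samples and 12.54 in each of the 2 nontargeting samples that had one.

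In complex III, the cytochrome bc1 complex, 4 of 9 probes fell and 1 rose, and the median difference was -0.53. Of the 4, 3 were for Uqcrb, a small subunit at the matrix side of the complex, and share a target transcript, so they are not independent members. Probe A_44_P356291 read 12.59, 12.68, 12.89 and 12.85 in knockdown samples and 14.37, 14.01, 14.51 and 14.10 in nontargeting samples. Probe A_44_P428197 read 14.001, 14.04, 14.23 and 14.29 in knockdown samples and 15.31, 15.26, 15.52 and 15.46 in nontargeting samples. Probe A_42_P668800 read 8.04, 8.11, 8.38 and 8.53 in knockdown samples and 9.40, 9.54, 9.01 and 9.12 in nontargeting samples. In all 3 the groups were clear of each other.

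The differences of the 3 Uqcrb probes were -1.498 ± 0.15, -1.25 ± 0.13 and -1.001 ± 0.14 (SE), or 2.82-fold, 2.37-fold and 2.001-fold lower, with adjusted p-values of 1.39e-05, 8.87e-06 and 0.000107. The probes lie in this order along chromosome 7, with 718 and 468 bases between neighbours, and their intervals overlap (-1.82 to -1.18, -1.52 to -0.97 and -1.29 to -0.71). Overexpression and not transduced samples stayed with the nontargeting ones. For A_44_P428197 they ranged from 15.09 to 15.38 and from 15.11 to 15.43. In all 3 probes each knockdown value was below every value of the other groups.

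**Figure D2:**
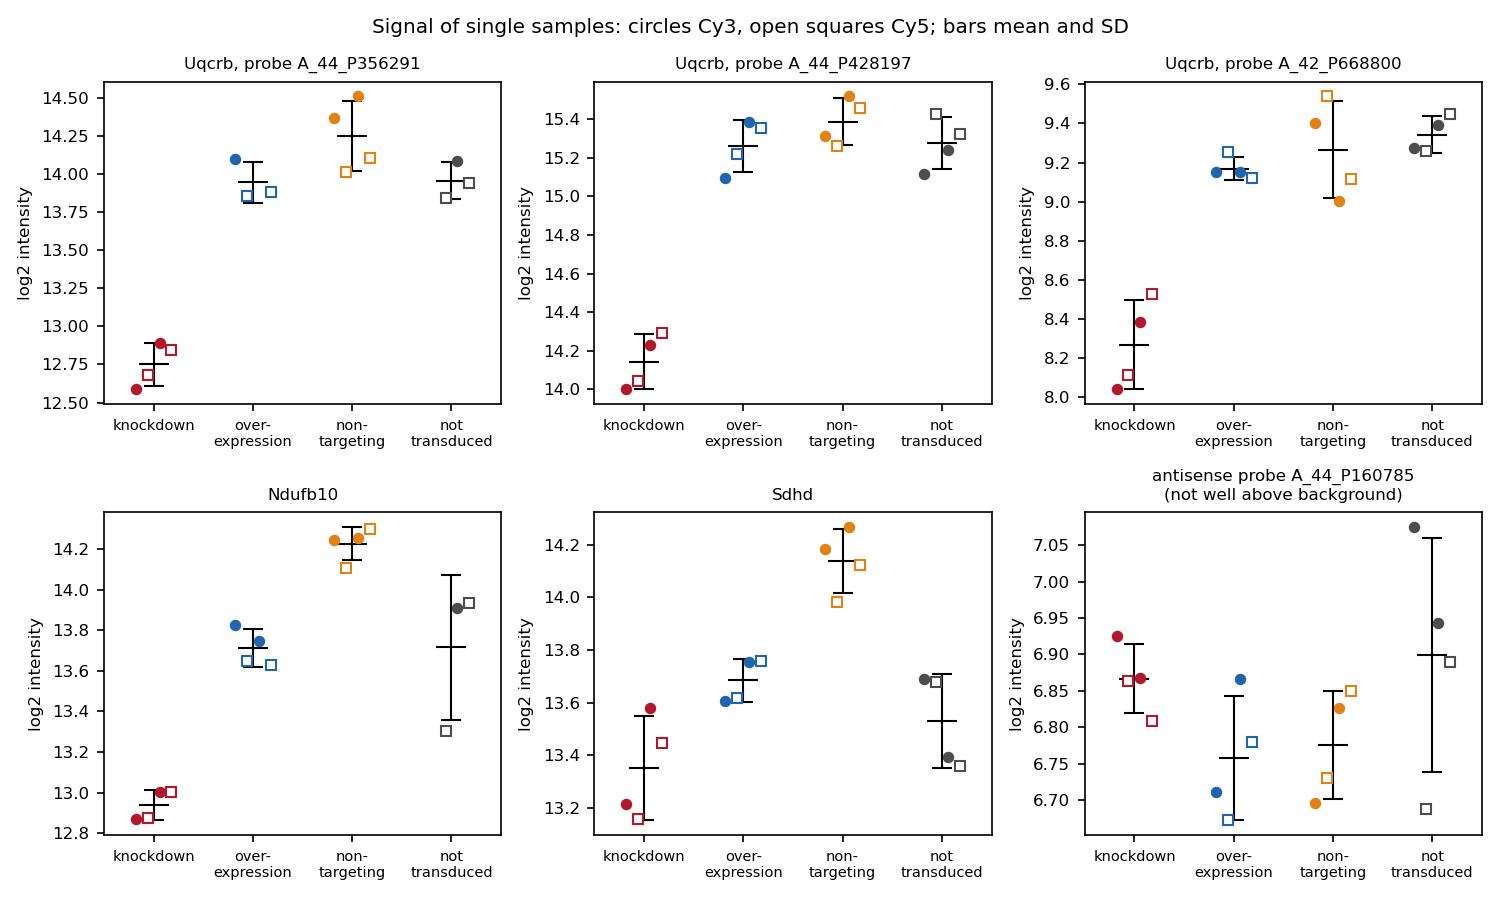
Log2 intensity of each sample (filled circles Cy3, open squares Cy5; bars mean and SD) for 3 Uqcrb probes, Ndufb10, Sdhd and the antisense probe at Uqcrb, in knockdown, overexpression, nontargeting and not transduced cultures. The 3 Uqcrb probes and Ndufb10 were lower in all knockdown samples than in any other sample, and the antisense probe was not well above background anywhere.

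A probe for the opposite strand of Uqcrb was on the array as well. It shares 40 of its 60 bases with the complement of A_42_P668800, and 30 of these (chromosome 7, 67958477 to 67958506, rn4) are shown to make the strands plain.
Uqcrb sense: ttgcatttaggaaaagtctgtattccatta
Uqcrb antisense: taatggaatacagacttttcctaaatgcaa
The antisense probe was well above background in 0 of 16 samples, so it gave a bound only and no difference.

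Uqcrfs1, the Rieske protein that carries the iron-sulfur cluster of complex III, was read by 2 probes. The first, A_44_P226919 (chromosome 17, 40433660 to 40433719, rn4), covers codons of the stretch that binds the cluster, in capitals.
Uqcrfs1: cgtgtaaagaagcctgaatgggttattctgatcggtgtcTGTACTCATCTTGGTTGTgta
It read 13.82, 13.81, 14.21 and 14.12 in knockdown samples and 14.40, 14.36, 14.70 and 14.61 in nontargeting samples, a difference of -0.53 ± 0.12 (SE, adjusted p = 0.00507) between groups that did not overlap. The second probe, A_44_P1049638, differed by -0.38 (adjusted p = 0.0903) and its groups overlapped, at 8.28 to 8.71 and 8.61 to 9.18.

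Uqcrh, the acidic hinge subunit that helps cytochrome c to dock, rose. Its values were 15.12, 15.13, 15.26 and 15.32 in knockdown samples and 14.83, 14.81, 14.41 and 14.52 in nontargeting samples, and the difference was 0.57 ± 0.14 (SE, adjusted p = 0.00752). With the processed signal it was 0.29 and did not pass (adjusted p = 0.142). The core proteins did not pass. Uqcrc2 differed by 0.16 (95% interval -0.12 to 0.43). Uqcrc1 differed by -0.77 (adjusted p = 0.0998), and its knockdown samples read 10.52 or more on one array but 9.29 and 9.29 on the other, while the nontargeting samples read 10.51 to 10.85. Uqcr11, a small subunit, had means of 15.66 ± 0.15 in knockdown and 15.46 ± 0.10 in nontargeting cultures (SD, n = 4 each) and did not pass.

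In complex IV, cytochrome c oxidase, 1 of 18 probes rose and 0 fell, with a median difference of -0.07 and 2 probes at an unadjusted p under 0.05. The rise was in Cox6a2, the muscle type of subunit 6A, at probe A_44_P376112. It read 8.22, 8.23, 8.51 and 8.45 in knockdown samples and 7.57, 7.65, 7.83 and 7.85 in nontargeting samples, a difference of 0.63 ± 0.14 (SE, adjusted p = 0.00378) with no overlap. Its size depended on the scaling, at 1.17 with the processed signal and 1.34 in the deposited values. The other Cox6a2 probe, A_42_P819964, read 9.997 to 10.071 and 9.96 to 10.24, and its difference was -0.05 (95% interval -0.33 to 0.24), so the 2 probes of this gene disagree. The ubiquitous form Cox6a1 differed by 0.06 (95% interval -0.29 to 0.42).

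In complex V, 2 of 22 probes fell and 0 rose, with 4 lower and 1 higher at an unadjusted p under 0.05. Atp5g3 encodes the c subunit of the rotating ring, and its 3 probes differed by -0.47, -0.29 and -0.23, of which only the first, A_43_P15344, passed (adjusted p = 0.0181). It read 13.15, 13.19, 13.43 and 13.37 in knockdown samples and 13.68, 13.60, 13.98 and 13.75 in nontargeting samples. Atp5h, subunit d of the stator stalk, was named after its values were seen and differed by -0.41 (adjusted p = 0.0197). Atp5g1 and Atp5g2, which encode the same mature c subunit as Atp5g3, differed by 0.14 (Atp5g1) and by -0.09 and -0.06 (2 probes of Atp5g2), and did not pass. Atp5hl1, the dimmest complex V probe tested, averaged 10.24 ± 0.14 in knockdown and 10.52 ± 0.25 in nontargeting cultures (SD, n = 4 each) and did not pass either.

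Calls rested on few arrays. Of the 15 members called in knockdown against nontargeting, 14 kept their call without any one sample, wherever the fit gave a value. Ndufb9 did not, at adjusted p-values up to 0.0788. Ndufb5 gave no value without nontargeting replicate 1 or 2, or without the array that held both, so its call was not tried there. Without any one array, 5 kept their call: the 3 Uqcrb probes, Ndufb10 and Sdhd. Without the knockdown array of replicates 1 and 2, Ndufa11 (-0.49, adjusted p = 0.107), Ndufv1 (-0.48, 0.118), Uqcrfs1 (-0.35, 0.106), Atp5g3 (-0.35, 0.189), Atp5h (-0.23, 0.284) and Ndufb9 (-0.27, 0.274) did not pass. Without the knockdown array of replicates 3 and 4, Ndufb5 (0.62, adjusted p = 0.056), Uqcrh (0.49, 0.0852), Cox6a2 (0.50, 0.0678), Ndufa9 (-0.40, 0.0847) and Ndufb9 (-0.42, 0.0754) did not pass. Without the nontargeting array of replicates 3 and 4, Uqcrh (0.39, 0.0523), Uqcrfs1 (-0.39, 0.0521), Atp5g3 (-0.35, 0.0875), Atp5h (-0.42, 0.0506), Ndufv1 (-0.48, 0.0651) and Ndufb9 (-0.32, 0.104) did not pass. All kept their sign.

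Markers of other cell types moved in the same comparison. Of 14 probes for proliferating cells 11 rose and 0 fell in knockdown cultures, and their summed intensity was 16420 to 20700 in knockdown and 8000 to 9517 in nontargeting samples. Values left out as outliers added nothing to these sums, here and for the lists below. Samples can therefore be summed over different probes, and the sums are not levels on equal terms. Oligodendrocyte markers rose at 4 of 13 probes (sums of 30720 to 43910 and 13320 to 21670), and of these markers Mbp and Mog did not pass. Astrocyte markers rose at 4 and fell at 2 of 17 probes (116700 to 129300 and 88080 to 116400). Neuron markers rose at 1 and fell at 1 of 13 (229800 to 248900 and 153300 to 243700). Of 15 microglia probes 7 were not well above background in either group, and 1 of 8 tested rose. Of vascular and fibroblast markers 0 of 10 tested moved. Against not transduced cultures, 8 of the 14 probes for proliferating cells rose in knockdown cultures and 4 fell in nontargeting cultures, where the not transduced sums were 5076 to 11170. The part of these shifts in the differences of the members was not tested.

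Overexpression against not transduced compared cultures on the other slide. Of the 97 members 0 rose and 0 fell by limma's test, where 1 of 27318 probes (0.00366%) passed. At an unadjusted p under 0.05 there was 1 member, and 1047 of all probes, or 3.83%. All 97 differences were below 2-fold, from -0.40 to 0.42, with a median of -0.03 against -0.01 for all probes. The 3 members with the smallest p were Cox6a2 (A_44_P376112, -0.40, 95% interval -0.68 to -0.11), the ATP synthase delta subunit gene Atp5d (0.42, interval -0.04 to 0.88, with 2 not transduced values left out) and Ndufb8 (-0.33, interval -0.70 to 0.04, likewise). Each had an adjusted p of 1. For the 3 Uqcrb probes the intervals were -0.35 to 0.35, -0.29 to 0.26 and -0.47 to 0.12, none of which reaches the size of the difference in the knockdown comparison. Ndufs6, an accessory subunit of complex I, and Sdhb were lower in every overexpression sample than in all others, at 13.15 to 13.25 against 13.28 to 13.71 for Ndufs6 and 13.11 to 13.19 against 13.22 to 13.60 for Sdhb. Such probes made up 2.06% of the members and 1.05% of all probes.

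Nontargeting against not transduced asked what the control virus does, across slides. In nontargeting cultures 15 members rose and 5 fell (15.5% and 5.15%), against 11.2% and 11% of all probes, with a median difference of 0.10 against 0.03. Across all probes 22.2% passed. With the processed signal 23 rose and 3 fell, beside 13.6% and 10.2% of all probes and a median of all probes of 0.13. In the deposited values 12 rose and 2 fell, beside 9.63% and 11% of all probes and a median of 0.04. The rises spread over complexes I (9 of 45 probes), II (1 of 3), IV (2 of 18) and V (3 of 22), whereas in complex III 0 of 9 rose and 1 fell. Among the markers, 4 of 17 astrocyte probes fell and 1 rose in nontargeting cultures, with S100b at -1.41, and summed intensities were 88080 to 116400 in nontargeting and 106700 to 166900 in not transduced samples. As before, values left out as outliers added nothing to the sums, so samples can be summed over different probes. Of 13 oligodendrocyte probes 3 fell and 0 rose (13320 to 21670 and 20880 to 30490), and of 13 neuron probes 2 fell, Eno2 and Syn1, and 0 rose (153300 to 243700 and 211500 to 239000). The part of these shifts in the differences of the members was not tested.

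The probe with the largest rise was one of Ndufaf4, an assembly factor of complex I, whose 3 probes differed by 0.77, 0.54 and 0.50 (adjusted p = 0.00584, 0.0158 and 0.0462). The last 2 were 1.19 and 1.35 with the processed signal and 0.87 and 0.93 in the deposited values. Probe A_44_P470528 read 11.51, 11.49, 11.22 and 11.32 in nontargeting samples and 10.703, 10.62, 10.53 and 10.62 in not transduced samples. Ndufa8, an accessory subunit, read 13.15, 13.02, 13.24 and 13.14 in nontargeting samples and 12.58, 12.71, 12.21 and 12.39 in not transduced samples, and differed by 0.67 ± 0.13 (SE, adjusted p = 0.00183). In both genes the groups were apart. Sdhd rose by 0.61 (adjusted p = 0.00306), Cox4i1, the common form of oxidase subunit 4, by 0.58 (0.00515), and Ndufb10 by 0.56 (0.017).

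The falls were at Cox6a2 (A_44_P376112), Uqcrh, Ndufb5 and both probes of Atp5sl, a factor in the assembly of the complex I membrane arm. Cox6a2 read 7.57 to 7.85 in nontargeting samples and 8.40 to 8.71 in not transduced samples, a difference of -0.83 ± 0.14 (SE, adjusted p = 0.000496) that was -1.48 with the processed signal and -1.38 in the deposited values. Uqcrh read 14.41 to 14.83 and 15.09 to 15.38, and differed by -0.64 (adjusted p = 0.00374). Ndufb5 differed by -0.64 (adjusted p = 0.00897, 2 nontargeting values left out), and Atp5sl by -0.76 and -0.54 (0.0103 and 0.0255). Uqcrh and Ndufb5 did not pass with the processed signal (-0.30, adjusted p = 0.113, and -0.545, 0.0601) or in the deposited values (-0.48, 0.11, and -0.44, 0.169), and one Atp5sl probe, A_44_P1017897, did not pass in the deposited ones. Cox6a2, Uqcrh and Ndufb5 are the genes that rose in knockdown against nontargeting. The nontargeting samples are shared by the 2 comparisons, which therefore do not give separate support.

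Without some array, 13 of these 20 calls did not pass, although none changed sign. Among those named above, Ndufb10 did not pass without not transduced replicate 2 alone (0.30, adjusted p = 0.117), without the not transduced array of replicates 1 and 2 (0.30, 0.11) or without the nontargeting array of replicates 3 and 4 (0.49, 0.0729). The Atp5sl probes did not pass without the not transduced array of replicates 1 and 2 (-0.72, 0.0609, and -0.24, 0.297), and A_44_P1017897 also not without not transduced replicate 2 (-0.48, 0.05004) or the nontargeting array of replicates 1 and 2 (-0.42, 0.115). Ndufb5 did not pass without the not transduced array of replicates 3 and 4 (-0.52, adjusted p = 0.0608). Of the Ndufaf4 probes, A_44_P253940 did not pass without the nontargeting array of replicates 1 and 2 (0.48, 0.054) or the not transduced array of replicates 1 and 2 (0.46, 0.102), and A_44_P394011 lost its call in 10 of its 12 repeats with a sample or an array left out.

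**Figure D3:**
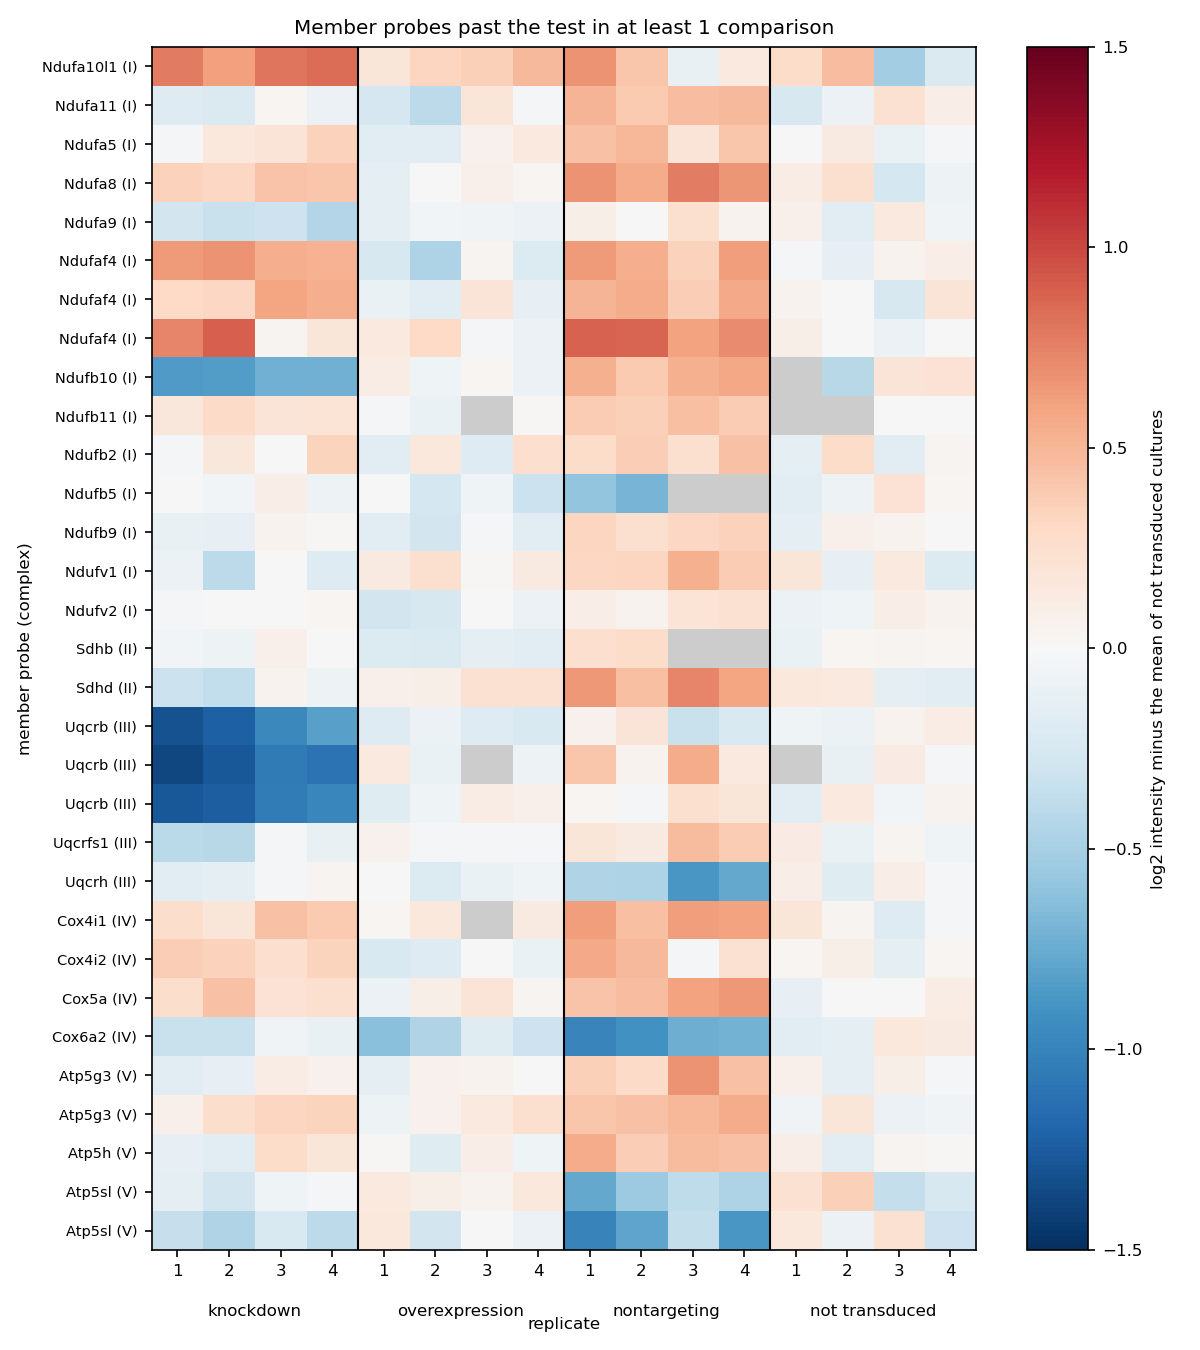
Log2 intensity of every member probe past the test in at least 1 comparison (rows, with complex), minus the mean of not transduced cultures, in each of 16 samples (columns, by group and replicate; grey cells are values left out as outliers). Uqcrb and Ndufb10 are low in the knockdown samples, and most of the other rows differ mainly in the nontargeting samples. Most of the comparisons that admit a row include the nontargeting group, so the choice of rows favours differences there.

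The nontargeting group stood apart more often than any other. In 14 member probes, of 13 genes, every nontargeting value was above every value of the 3 other groups, which is 14.4% of the members and compares with 8.85% of all probes. Of the genes that fell in knockdown against nontargeting, Ndufa11, Ndufb9, Ndufb10, Ndufv1, Sdhd, Uqcrfs1, Atp5g3 and Atp5h were among these. In 4 probes (4.12%, against 7.82%), of Ndufb5, Uqcrh, Cox6a2 and Atp5sl, every nontargeting value was below. The first 3 of these genes were the rises in knockdown against nontargeting. Values left out as outliers do not count here, as at Ndufb5 and Sdhb, and a group with fewer values separates more easily. The overexpression and not transduced cultures were on the other slide. Knockdown stood below in 6 probes (6.19%, against 4.61%): Uqcrb at 3, Ndufb10, Ndufa9 and Atp5s, a factor named after its values were seen. It stood above in 1 (1.03%, against 4.49%), a probe of Ndufa10l1. Overexpression stood above in 0 member probes and in 0.37% of all probes. Not transduced cultures stood apart in 0 probes, against 0.564% above and 0.428% below among all.

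Overexpression against nontargeting set 2 viruses of different vectors against each other, across slides. In overexpression cultures 18 members fell and 5 rose (18.6% and 5.15%), against 11.9% and 10.6% of all probes, and 22.5% of all probes did either. The medians were -0.13 and -0.03. With the processed signal 39 fell and 3 rose, beside 16.2% and 9.8% of all probes and a median of all probes of -0.14. In the deposited values 26 fell and 3 rose, beside 17.1% and 8.26% and a median of -0.19. The falls were led by Ndufaf4 (-0.75, -0.68 and -0.55), Ndufa8 (-0.67), Ndufa11 (-0.59) and Ndufb10 (-0.51), with adjusted p-values from 0.00174 to 0.0302. Ndufa8 read 12.34, 12.48, 12.55 and 12.50 in overexpression samples, below all nontargeting samples, which are given above. The rises were at Atp5sl (0.70 and 0.65), Uqcrh (0.54), Ndufb5 (0.48) and Cox6a2 (A_44_P376112, 0.44). Of the rises, those of Uqcrh and Ndufb5 did not pass with the processed signal (0.20, adjusted p = 0.301, and 0.30, 0.278) or in the deposited values (0.22, 0.464, and 0.16, 0.622). Markers moved here too: 5 astrocyte probes of 17 rose and 0 fell, 3 oligodendrocyte probes of 13 rose and 0 fell, 3 neuron probes of 13 rose and 2 fell, and 4 proliferation probes of 14 rose and 0 fell. Their part in the differences of the members was not tested. These comparisons use the nontargeting samples again. Ndufa8 alone of the 23 kept its call in every alternative that gave a value. Without the overexpression array of replicates 1 and 2, for example, Ndufa11 (-0.39, adjusted p = 0.141), Ndufb10 (-0.54, 0.0832) and Uqcrh (0.55, 0.0532) did not pass, and 1 member rose and 3 fell in all. Calls among all probes dropped there too, to 3419 of 26228 from 6149 of 27318.

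Knockdown against not transduced, across slides, called 4 falls and 2 rises among the members (4.12% and 2.06%), against 5.37% and 4.76% of all probes, and 10.1% of all probes passed. The median difference was 0.00 in both. The falls were the 3 Uqcrb probes and Ndufb10. Uqcrb differed by -1.23 ± 0.15 (A_44_P356291), -1.13 ± 0.13 (A_44_P428197) and -1.08 ± 0.14 (A_42_P668800) (SE), with adjusted p-values of 0.000415, 8.14e-05 and 0.000213, and Ndufb10 by -0.73 ± 0.15 (adjusted p = 0.00765). The Uqcrb value of not transduced replicate 1 was left out as an outlier in A_44_P356291, as was that of overexpression replicate 3. Sdhd differed by -0.18 and did not pass (adjusted p = 0.407). The rises were Ndufaf4 (A_44_P253940, 0.59, adjusted p = 0.0169) and Ndufa10l1 (A_44_P134970, 0.76, adjusted p = 0.0448). Probe A_44_P134966 of the same gene shares 40 bases with it and differed by 0.57 (adjusted p = 0.285), and the remaining Ndufa10l1 probe by 0.18.

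Deviations of same-numbered samples of these 2 groups correlated at 0.162 to 0.268. These samples share the dye, and with the dye removed the correlations were 0.029 to 0.12. With the replicate number as a block 7 members fell and 4 rose. How many of all probes passed with the block in this comparison is not given here, so no gain particular to the members is read from it. In the deposited values 4 fell and 6 rose, beside 2.48% and 11.3% of all probes, and the median of all probes was 0.20. The 3 Uqcrb probes passed under every alternative that gave a value. A_44_P356291 gave none within Cy3 or without the not transduced array of replicates 3 and 4. Ndufb10 did not pass without the knockdown array of replicates 1 and 2 (-0.67, adjusted p = 0.0798) or in the deposited values (-0.41). Ndufaf4 did not pass without either knockdown array (0.53, 0.143, without replicates 1 and 2, and 0.65, 0.0701, without replicates 3 and 4) or the not transduced array of replicates 1 and 2 (0.52, 0.107). Ndufa10l1 did not pass without any of 6 single samples, for example not transduced replicate 3 (0.66, adjusted p = 0.0911). It did not pass without the not transduced array of replicates 3 and 4 (0.39, 0.339) or either knockdown array (0.82, 0.133, without replicates 1 and 2, and 0.70, 0.222, without replicates 3 and 4).

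Complex IV exists in tissue types that differ in the isoforms of subunits 4, 6A, 7A and 8. Cox4i1 averaged 14.17 ± 0.12 in knockdown, 13.96 ± 0.07 in overexpression (n = 3, replicate 3 left out), 14.43 ± 0.09 in nontargeting and 13.85 ± 0.16 in not transduced cultures (SD, n = 4 otherwise). It rose in nontargeting against not transduced cultures, and the order of knockdown and nontargeting was not settled (-0.26, adjusted p = 0.176). Cox4i2, the form of lung and of oxygen-poor tissue, averaged 10.84 ± 0.05, 10.38 ± 0.11, 10.82 ± 0.26 and 10.51 ± 0.10 in the same order, and fell in overexpression against nontargeting cultures alone (-0.44, adjusted p = 0.0292). Cox5a, a nuclear subunit of the matrix face, averaged 15.15 ± 0.10, 14.92 ± 0.12, 15.40 ± 0.11 and 14.86 ± 0.10. It was called in nontargeting against not transduced cultures (0.54, adjusted p = 0.00373) and in overexpression against nontargeting cultures (-0.48, 0.00755).

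**Figure D4:**
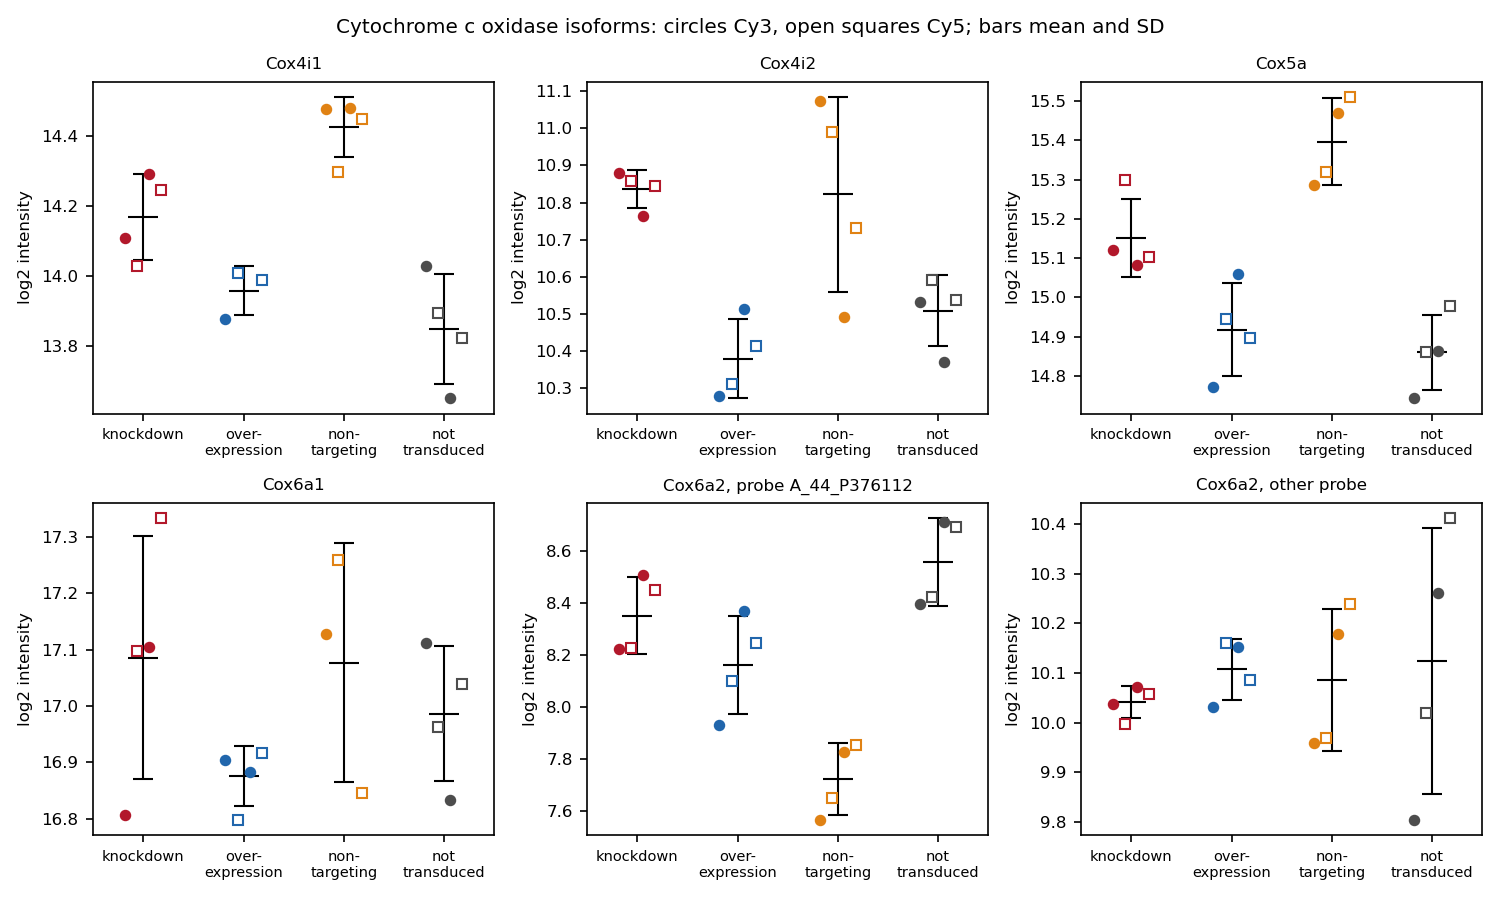
Log2 intensity of each sample (filled circles Cy3, open squares Cy5; bars mean and SD) for Cox4i1, Cox4i2, Cox5a, Cox6a1 and both Cox6a2 probes, in knockdown, overexpression, nontargeting and not transduced cultures. The 2 Cox6a2 probes differ: nontargeting samples are the lowest at A_44_P376112 and overlap the other groups at the other probe.

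Further isoforms were not called in any comparison. They were Cox5b (2 probes, differences of -0.07 and -0.03 in knockdown against nontargeting), Cox6b2 (-0.28), Cox6c (0.21), Cox7a2 (0.26), Cox7a2l (-0.19) and Cox8a (-0.07). Cox8b, the muscle form of subunit 8, was not well above background in any sample, and Cox8c, the testis form, in 2.

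The genes around the respiratory chain were counted in the same fit. Among all probes 10.9% fell and 10.3% rose in knockdown against nontargeting, the shares to set beside the counts of each list in that comparison. In knockdown against nontargeting cultures, 3 of 25 probes for cytochrome c and oxidase assembly fell and 1 rose, with Cox18 (-0.67), Cox17 (-0.66) and Lrpprc (-0.41) lower. A second probe of Cox18 (-0.10) and of Lrpprc (-0.45) did not pass. Cox18 and Cox17 serve the insertion and the copper supply of oxidase subunits, and Lrpprc stabilizes mitochondrial messenger RNA. Of 78 probes for mitochondrial ribosomal proteins 18 fell and 6 rose, among them Mrpl21 (-1.04), Mrpl40 (-1.14) and Mrpl51 (1.01). The second Mrpl40 probe differed by 0.03. Among the 24 import probes 4 fell and 2 rose. Timm17a, a channel subunit of the inner membrane translocase, differed by -1.66 at one probe and by -0.08 at the other, while its partner Timm23 rose by 1.13.

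Of 31 probes for the citric acid cycle and pyruvate dehydrogenase, 4 rose and 3 fell. Mdh2, the mitochondrial malate dehydrogenase, had a mean of 11.69 ± 0.09 in knockdown and 13.61 ± 0.23 in nontargeting cultures (SD, n = 4 each), a difference of -1.93 (adjusted p = 1.45e-06) that exceeded that of any respiratory chain member. It was also -1.88 against not transduced cultures (adjusted p = 6.47e-06). Dlat, a subunit of pyruvate dehydrogenase, rose by 0.98 at both of 2 probes. Of 23 probes for biogenesis and mitochondrial transcription 4 rose and 4 fell. Ppargc1a, the coactivator PGC-1alpha, averaged 9.61 ± 0.03 in knockdown, 8.18 ± 0.45 in nontargeting and 9.63 ± 0.27 in not transduced cultures (SD, n = 4 each). It differed by 1.43 in knockdown against nontargeting (adjusted p = 0.000205) and by -0.02 in knockdown against not transduced cultures.

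Of 22 glycolysis probes 4 rose and 1 fell in knockdown against nontargeting cultures, with the glucose transporters Slc2a1 (0.99) and Slc2a3 (-1.16) in opposite directions, and of 24 probes for metabolite carriers 2 rose and 0 fell. In overexpression against not transduced cultures 0 probes of any of these 7 lists passed. Nontargeting against not transduced cultures showed 13 rises and 7 falls among 78 mitochondrial ribosomal probes, 2 and 1 among 25 assembly and 5 and 5 among 24 import probes. There were 0 and 4 among 31 citric acid cycle, 1 and 3 among 23 biogenesis, 1 and 2 among 22 glycolysis and 0 and 3 among 24 carrier probes. Among all probes 11.2% rose and 11% fell in that comparison.

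**Figure D5:**
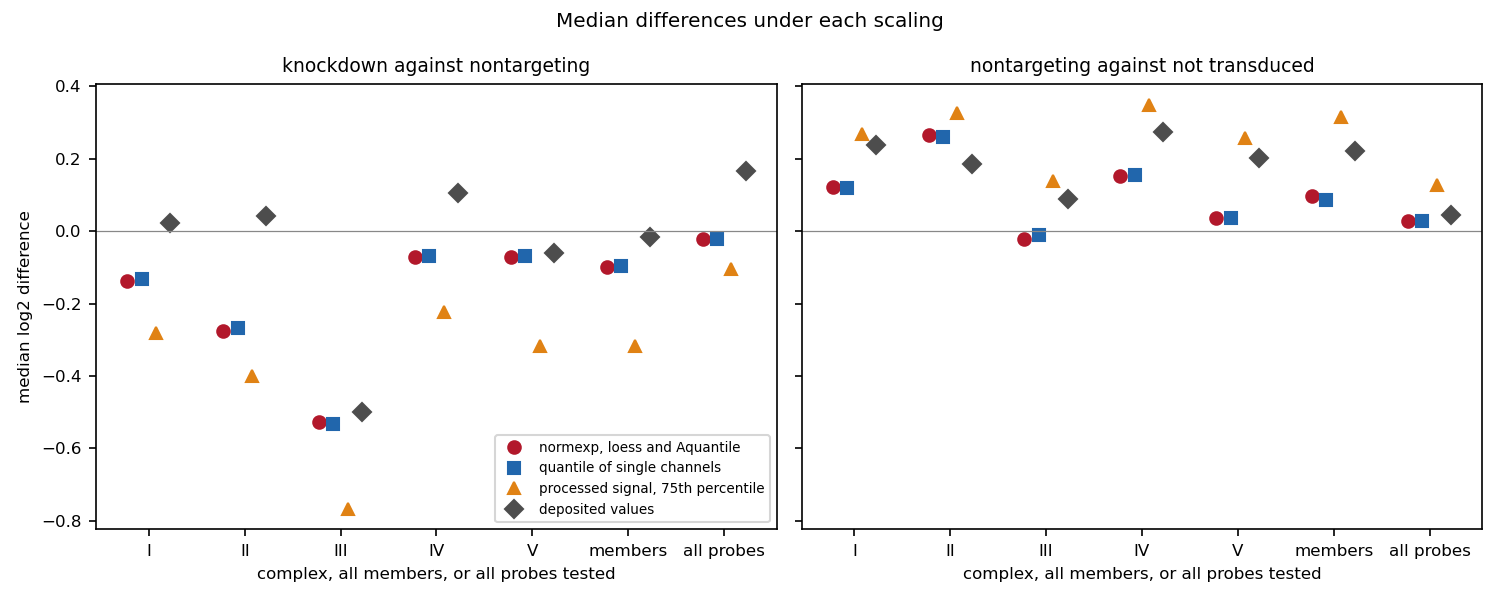
Median log2 difference of the tested probes of each complex, of all members and of all probes, for knockdown against nontargeting and nontargeting against not transduced, under 4 scalings of the same arrays (one symbol each). The median of all probes moves with the scaling, and the median of complex III is the lowest of the 5 complexes in the knockdown comparison under all 4. Medians are over probes and not over genes, and complex III has 9 tested probes of 6 genes, 3 of them for Uqcrb.

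Promoters were read for the members because nuclear genes of the respiratory chain are known to share binding sites of the factors NRF1, GABP and YY1. RefSeq promoters (build GRCr8, 250 bases before to 50 after the start of transcription) were matched to 71 of the 84 member genes. The full NRF1 motif, a palindrome of 10 letters, was found on either strand in 5 of 71 (7.04%), against 0.932% of all 27457 promoters, and its shorter form GCATGCGC, which lies within the longer, in 10 (14.1%, against 2.66%). The GABP motif CCGGAAG was found in 22 (31%, against 9.22%) and the YY1 motif AAGATGGCG in 10 (14.1%, against 1.93%). Uqcrb was not among the genes matched. Of the other genes with large falls in knockdown cultures, Sdhd had the GABP motif in 2 places and for Ndufb10 none of the letters of the 4 motifs were found in this window. The last 100 bases before the Sdhd start (chromosome 8, 59850642 to 59850741, minus strand, GRCr8) are shown with the GABP motif, on the opposite strand and 48 bases before the start, in capitals.
Sdhd: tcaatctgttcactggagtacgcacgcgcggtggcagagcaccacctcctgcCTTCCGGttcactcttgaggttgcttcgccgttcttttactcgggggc
These matches describe letters and were not tied to any difference between groups. Among the factors, Gabpa was called at one of 2 probes in knockdown against nontargeting cultures (0.34, adjusted p = 0.0424), and Nrf1 (-0.06), Yy1 (-0.27) and Tfam (-0.05), which packages mitochondrial DNA, were not.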

How the data were processed

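RNA of 16 cultures was hybridised to 8 two-colour Agilent rat arrays on 2 slides, and spots were read with Agilent Feature Extraction 10.7.3.1, per the file headers. The deposited scanner files hold spot intensities. The authors' deposited series values are log2 values that equal the median signal minus the median background of each channel, centred on each sample's median (r = 1 against the scanner files). Each channel was one sample, with replicates 1 and 3 in Cy3 and 2 and 4 in Cy5. One label names the dentate gyrus of hormone- or oil-treated adult female rats, which conflicts with the other labels in tissue, age and sex. It was not used, because the other labels describe cultured embryonic neurons.

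Intensities were background-corrected (normexp, offset 50), loess-normalized within arrays with control spots at weight 0 and Aquantile-normalized between arrays in limma 3.58.1 (R 4.3.3, statmod 1.5.0). Outlier spots were set to missing and spots of a probe averaged. Probes well above background in at least 4 samples, with at least 12 values and at least 2 per group, were fitted (27318 of 41012). The fit had group and dye as terms and array as random block (within-array correlation 0.561), with moderated variances and two-sided p-values adjusted by Benjamini-Hochberg at 0.05. On simulated data for knockdown against nontargeting over 27318 probes, 28% of 100 changes of 0.5 (log2) and 82% of 100 changes of 1 were recovered, with 7 false calls. No other probes were changed there, whereas 21.1% of probes passed in the data. The adjusted threshold was therefore stricter in the simulation, and these shares do not give the power or the error of the reported calls. Matplotlib 3.10.9 (Python 3.11.15) drew the figures.

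Members and lists were chosen with earlier results of these data known. Probes named are, per comparison, all called members, or the 6 largest rises and 6 largest falls where over 12 were called, or the 3 smallest p-values where under 3 were, together with the brightest and dimmest subunit of each complex, isoform groups and further probes of named genes. The design calls the replicates biological, while replicates on one array were fitted as sharing it.

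The replicate numbers come from the labels. Deviations from group means of same-numbered samples correlated at 0.130, 0.153, 0.265 and 0.192 between knockdown and nontargeting and at 0.162, 0.171, 0.268 and 0.196 between knockdown and not transduced, all over 0.1. The replicate number was a block only in an alternative fit, never in the reported calls. The correlations were 0.035, 0.203, 0.274 and 0.332 for nontargeting with not transduced samples, -0.201 to 0.246 for overexpression with not transduced samples and -0.021 to 0.093 for overexpression with nontargeting, where at least 1 pair was under 0.1. Same-numbered samples share the dye, and with the dye removed the knockdown correlations were 0.057 to 0.148 and 0.029 to 0.120. Alternatives changed the scaling, filters, probes per gene, dye and array handling, the block, the samples and the threshold.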

Additional observations from a re-analysis of the deposited data

Results flagged for a closer look

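Of 122 groups of 4 samples in 33 named probes, 3 held a sample whose gap to the nearest other, divided by the range of the group, was above Dixon's critical value for that number. Chance gives about 1 in 20 such groups. Sdhb read 13.22 in not transduced replicate 1, against 13.35, 13.359 and 13.366 in the other replicates. Cox4i1 read 14.297 in nontargeting replicate 2, against 14.449, 14.477 and 14.479. Atp5g3 (A_44_P484950) read 15.609 in not transduced replicate 2, against 15.34, 15.371 and 15.373.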

How the results depend on the processing

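Of the alternative values computed for 67 results of single probes, 1245 kept direction and side of the threshold, 305 kept the direction but not the call, and 0 reversed. The cause was not tested, here or for the counts below. In every alternative that gave a value, 5 calls remained in knockdown against nontargeting (3 Uqcrb probes, Ndufb10, Sdhd), 3 in knockdown against not transduced (Uqcrb), 2 in nontargeting against not transduced (Cox6a2, Ndufa8) and 1 in overexpression against nontargeting (Ndufa8). Overexpression against not transduced had 0 higher and 0 lower members throughout. Comparisons within a single dye tested 68 (Cy3) and 84 (Cy5) of the members, with 2 samples a group, and dim probes such as the antisense probe at Uqcrb gave bounds only.

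In knockdown against nontargeting, higher members numbered 1 with the processed signal, 6 in the deposited values and 0 in Cy3, and lower members 29 with the processed signal, 5 in the deposited values, 7 with each array as 1 value, 3 in Cy3 and 5 with a 1.5-fold minimum. Calls among all probes changed as well. In the main fit 5775 of 27318 probes passed, against 2327 of 20980 in Cy3 and 3997 of 27226 with each array as 1 value. With the 1.5-fold minimum 3626 of 27318 passed. Leaving out a sample or an array gave 0 to 4 higher and 8 to 17 lower, where 3254 to 6530 of all probes passed. In nontargeting against not transduced, higher members numbered 23 with the processed signal, 7 with each array as 1 value, 2 in Cy3, 5 in Cy5 and 3 with a 1.5-fold minimum, and lower members 3 with the processed signal, 2 in the deposited values, 3 with 1 probe per gene, 3 in Cy3 and 2 in Cy5. Of all probes 6075 of 27318 passed in the main fit, 2694 of 20980 in Cy3 and 3036 of 26927 in Cy5. With each array as 1 value 4190 of 27226 passed, with the 1.5-fold minimum 3641 of 27318 and with 1 probe per gene 5161 of 22983. Leaving out a sample or an array gave 9 to 15 higher and 3 to 8 lower, where 4268 to 6538 of all probes passed. In overexpression against nontargeting, higher members numbered 3 with the processed signal, in the deposited values and with 1 probe per gene, 2 with each array as 1 value, 0 in Cy3, 1 in Cy5 and 2 with a 1.5-fold minimum, and lower members 39 with the processed signal, 6 with each array as 1 value, 1 in Cy3, 9 in Cy5 and 4 with a 1.5-fold minimum. Of all probes 6149 of 27318 passed in the main fit, 2096 of 20980 in Cy3 and 3980 of 26927 in Cy5. With each array as 1 value 4233 of 27226 passed, with the 1.5-fold minimum 3607 of 27318 and with 1 probe per gene 5231 of 22983. Leaving out a sample or an array gave 0 to 7 higher and 3 to 20 lower. In knockdown against not transduced, higher members numbered 6 in the deposited values, 1 with 1 probe per gene and with each array as 1 value, and 0 in Cy3 and in Cy5, and lower members 2 with 1 probe per gene and in Cy3. Leaving out a sample or an array gave 0 to 3 higher and 2 to 5 lower. Apart from the deposited values, the matching numbers for all probes are not given here for knockdown against not transduced. Its counts are therefore not read as particular to the members.

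With the replicate block, knockdown against not transduced had 4 higher and 7 lower members, against 2 and 4 without it. The block gave 3 higher and 14 lower in knockdown against nontargeting, and, where at least 1 same-numbered pair correlated under 0.1, 17 and 5 in nontargeting against not transduced, 5 and 20 in overexpression against nontargeting and 0 and 0 in overexpression against not transduced. Calls among all 27318 probes also rose with the block. They went from 5775 to 6708 in knockdown against nontargeting and from 6075 to 7150 in nontargeting against not transduced. In overexpression against nontargeting they went from 6149 to 7278. The added member calls are therefore not read as particular to the members.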

Other observations

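Cox8c, the testis form of oxidase subunit 8, was well above background in 2 samples, not transduced replicates 3 and 4, which share an array. It read 9.29 and 8.29 there, and 6.68 to 7.02 in the 14 other samples. Ndufs4, an accessory subunit of complex I, split by array within the nontargeting group, at 9.35 and 9.71 on one array and 11.16 and 10.91 on the other, while knockdown samples read 9.96 to 10.33.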
